A study of Xenopus tropicalis with 31 samples.

Results

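Foxi2 binding was compared between the late blastula (stage 9) and the early gastrula (stage 10.5) of *Xenopus tropicalis*, using the list of Foxi2 peaks deposited for each stage. The stage 9 list held 6668 peaks and the stage 10.5 list 6039, together 12707 of the 190255 regions in the 16 lists of the series. Peaks that shared at least 1 bp between the lists were called kept. Stage 9 peaks without a partner at stage 10.5 were called lost (3338), and stage 10.5 peaks without a partner at stage 9 were called gained (2756). Merging both lists gave 9366 sites, of which 3272 were kept. The words lost and gained refer to the lists alone, since a site with binding below the cutoff of one list counts as unbound there.

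Foxi2 is a maternally supplied forkhead transcription factor of the ectoderm. Forkhead proteins are known for binding DNA in compacted chromatin and marking enhancers before their genes are transcribed. Sox3, a maternally supplied SoxB1 factor, is expressed in the same cells. Ep300 is a coactivator with acetyltransferase activity and is widely used to locate active enhancers. It acetylates histone H3 at lysine 27 (H3K27ac), a mark of active regulatory DNA. Polycomb complexes place trimethylation on the same lysine (H3K27me3), a mark of repressed developmental genes. In *Xenopus* the ectoderm derives from the animal pole of the egg and the endoderm from the vegetal pole.

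The study profiled wild-type embryos by chromatin immunoprecipitation and sequencing (ChIP-seq). Foxi2 was profiled in whole embryos at stages 8, 9 and 10.5, with 2 replicates per stage, and so was Sox3. At stage 10.5, ectoderm and endoderm were dissected for ChIP of Ep300, H3K27ac and H3K27me3. An initial Ep300 experiment had 1 sample per tissue, and a later one had 2 replicates of wild-type tissue and 2 of FS morphants, in which morpholinos against *foxi2* and *sox3* were injected. Per the study's methods, morpholinos were injected on the animal side at the 1-cell or 2-cell stage. How far each dissected tissue was depleted was not measured here. H3K27ac had 1 sample per tissue and H3K27me3 had 2. A whole embryo contains every germ layer, so a Foxi2 peak cannot be assigned to one of them, and binding in fewer cells cannot be told apart from weaker binding in each cell. Each stage had 1 list in which the replicates were already combined, so the variation among replicates is not known for any difference between stages and no test was made. Shares are given with Wilson 95% intervals, which cover the counting of peaks only. The tissue labels were checked at the bodies of known marker genes. An ectoderm H3K27ac region overlapped 6 of 7 ectoderm markers and 1 of 7 endoderm markers, and an endoderm region overlapped 3 of 7 and 7 of 7. H3K27me3 did not separate the tissues in this way, with 6 of 7 endoderm markers covered in both tissues and 2 and 3 of 7 ectoderm markers in ectoderm and endoderm. The extraction protocol filed with every sample names an antibody against VegT, and the sample titles were followed here.

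Large shares of both Foxi2 lists had no partner in the other. Of the stage 9 peaks, 50.1% were lost (48.9 to 51.3), and of the stage 10.5 peaks 45.6% were gained (44.4 to 46.9). The division was clear in position. Only 6 lost peaks lay within 100 bp of a stage 10.5 peak, and only 6 of the 3341 overlapping pairs shared less than 100 bp. The summit of a lost peak was a median of 96021 bp from the nearest stage 10.5 summit, and that of a gained peak 34247 bp from the nearest stage 9 summit. Within 10 kb of a summit of the other stage lay 27.9% of gained peaks and 16.2% of lost peaks. For comparison, 58.0% of stage 8 Foxi2 peaks had no partner at stage 9 (57.1 to 58.8), and 17.04% of stage 9 peaks had none at stage 8 (16.2 to 18.0). Of the Sox3 peaks, 6.57% of stage 9 were lost (5.87 to 7.34) and 72.0% of stage 10.5 were gained (71.3 to 72.7). These shares depend on list length, which was 13158 peaks for stage 8 Foxi2 and 4401 and 14648 for Sox3 of stages 9 and 10.5, so much of the longer list had to lack a partner.

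Lost and gained peaks were the weaker ones of their lists. Strength is given as fold enrichment, the ratio of ChIP to input signal at the summit. Lost peaks had a median fold enrichment of 17.7 at stage 9, with quartiles of 14.3 and 23.8, against 23.5 for kept peaks of that stage, with quartiles of 17.1 and 32.5. Gained peaks had a median of 19.2 at stage 10.5, with quartiles of 15.9 and 23.5, against 27.5 for kept peaks, with quartiles of 22.04 and 33.4. The distributions overlapped widely. Lost and gained peaks were also narrower, with median widths of 494 and 559 bp against 547.5 bp for kept peaks at stage 9 and 657 bp at stage 10.5.

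When each list was divided into quintiles by −log10 p, the peak caller's measure of evidence for a peak, the share lost ran from 68.1% in the weakest quintile of stage 9 (65.6 to 70.6) through 60.6%, 53.6% and 44.4% to 23.3% in the strongest (21.1 to 25.7). The share gained ran from 81.3% in the weakest quintile of stage 10.5 (79.0 to 83.4) through 65.9%, 49.3% and 26.4% to 5.30% in the strongest (4.17 to 6.71). Nearly every strong gastrula site was thus already in the blastula list, whereas 311 of the 1334 strongest blastula sites were not in the gastrula list. The lists differed in their strength as a whole. The median −log10 p was 109.6 at stage 9 and 202.0 at stage 10.5, and the first percentile was 33.8 and 70.9, so a peak of a given −log10 p ranked higher at stage 9.

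**Figure D1:**
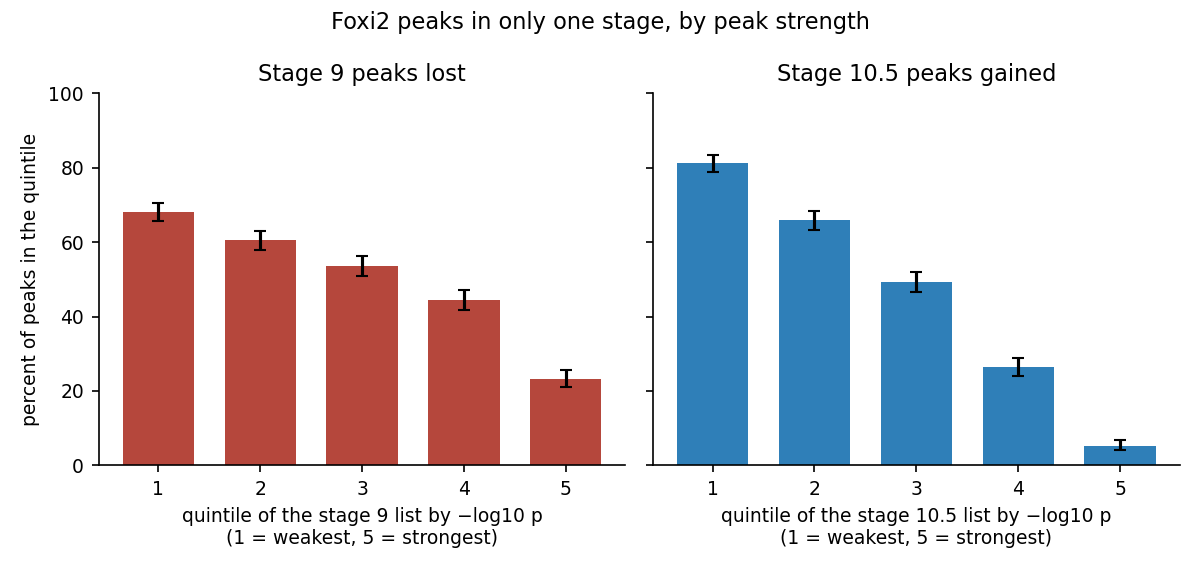
Percent of Foxi2 peaks found at one stage only, for quintiles of the stage 9 list (left, lost) and of the stage 10.5 list (right, gained) ordered by −log10 p, with Wilson 95% intervals as error bars. The share lost is 68.1% in the weakest quintile and 23.3% in the strongest, and the share gained is 81.3% and 5.30%.

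At kept sites the Foxi2 summits lay close together at both stages. Fold enrichment was slightly higher at stage 10.5 over all pairs but not with the stronger 50% of each list. Of the overlapping pairs, 3210 joined a single peak of each stage. The ratio of stage 10.5 to stage 9 fold enrichment had a median of 1.12 (95% interval of the median 1.099 to 1.14), with quartiles of 0.847 and 1.48 and extremes of 0.258 and 3.51. Fold enrichment was higher at stage 10.5 in 61.3% of pairs (59.6 to 62.9). By quintile of stage 9 strength the median ratio ran from 1.67 in the weakest (1.61 to 1.71) to 0.754 in the strongest (0.737 to 0.779), and with the stronger 50% of each list it was 1.005. Stage 9 fold enrichment is the divisor of the ratio, so ranking by stage 9 strength tends to give such an order by itself. The quintiles therefore cannot show that strong sites weakened. Fold enrichment at stage 10.5 was at least 2 times as high in 216 pairs and at most 0.5 times as high in 64. Across pairs, the log2 fold enrichments of both stages had a Pearson r of 0.43 and the fold enrichments a Spearman rho of 0.43 (n = 3210 pairs, which share their libraries and are not independent). The stage 10.5 peak was wider in 72.4% of pairs, with a median width ratio of 1.15. The summits were a median of 16 bp apart, with quartiles of 7 and 29 bp, and 90.7% lay within 50 bp of each other (89.6 to 91.6). The summit moved to a higher coordinate in 1572 pairs and to a lower one in 1571. In 46 pairs the summits were over 200 bp apart. The read depth of each sample was not analysed here, and the ratio also depends on the input of each stage.

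**Figure D2:**
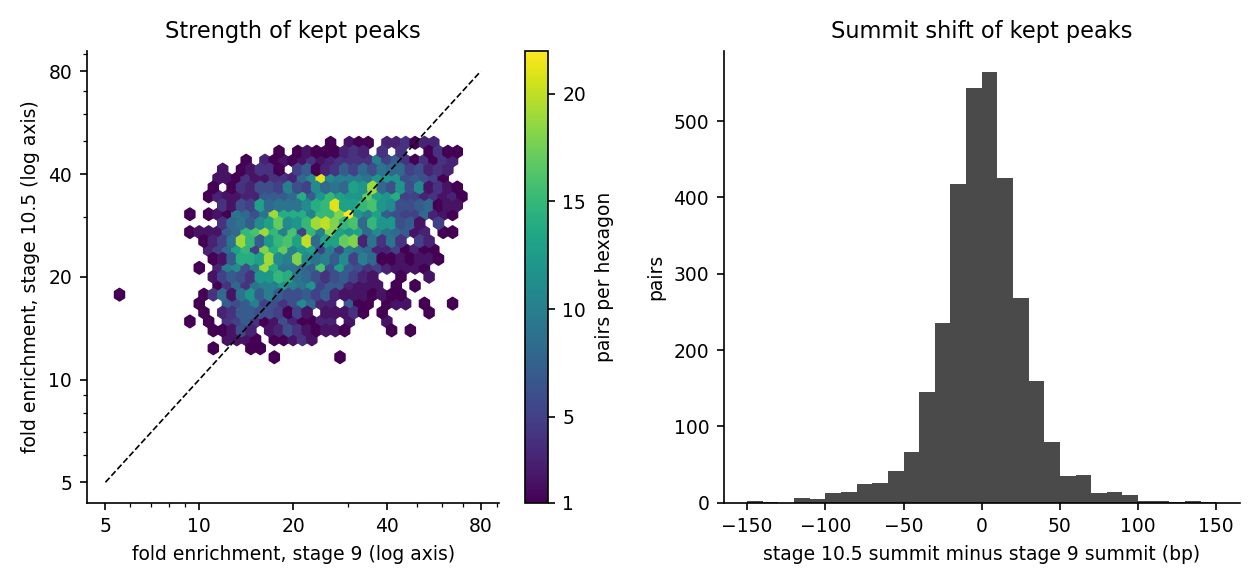
Left, fold enrichment at stage 9 against stage 10.5 for the 3210 one-to-one kept pairs on log axes, with colour for pairs per hexagon and a dashed line of equality. Right, histogram of the stage 10.5 summit position minus the stage 9 position within 150 bp, in bins of 10 bp. The median ratio is 1.12, and 90.7% of summits lie within 50 bp.

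The lost, kept and gained peaks differed in their chromatin at stage 10.5. In the initial Ep300 experiment, an ectoderm peak overlapped 7.58% of lost peaks (6.73 to 8.53), 53.2% of kept peaks (51.5 to 54.9) and 34.0% of gained peaks (32.2 to 35.8). Endoderm Ep300 overlapped 11.8% (10.8 to 13.0), 37.8% (36.1 to 39.4) and 32.2% (30.5 to 34.0) of the same sets. The preference for one tissue also differed. Among kept peaks, 881 overlapped Ep300 in ectoderm only and 374 in endoderm only. Among gained peaks the numbers were 579 and 531, and among lost peaks 123 and 265. In the later experiment, described with the FS morphants, the counts for ectoderm only and endoderm only were 817 and 448 among kept, 593 and 604 among gained, and 150 and 394 among lost peaks, so the order turned for gained peaks. Neither tissue had Ep300 at 84.5% of lost, 35.4% of kept and 46.8% of gained peaks. The endoderm Ep300 list held 11690 peaks and the ectoderm list 5840.

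H3K27ac separated lost peaks from the other sets but not gained from kept. Ectoderm H3K27ac regions overlapped 30.4% of lost peaks (28.9 to 32.0), 65.4% of kept peaks (63.8 to 67.0) and 66.1% of gained peaks (64.4 to 67.9). In endoderm the shares were 24.7% (23.3 to 26.2), 49.6% (47.9 to 51.4) and 51.1% (49.2 to 52.9). Super-enhancers, the long and strongly acetylated regions at the top of the H3K27ac ranking, overlapped 11.8% of lost, 35.9% of kept and 36.7% of gained peaks in ectoderm, and 7.46%, 21.2% and 23.0% in endoderm. The signal column of the endoderm H3K27ac table is headed with the animal-pole library, so the endoderm super-enhancer calls are of uncertain origin. Overlap with an H3K27ac region but no Ep300 peak was more frequent at gained peaks. Ectoderm H3K27ac without ectoderm Ep300 was found at 35.7% of gained peaks, 20.6% of kept peaks and 24.4% of lost peaks.

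H3K27me3 had the opposite order. In ectoderm it overlapped 33.2% of lost peaks (31.6 to 34.8), 26.3% of kept peaks (24.9 to 27.9) and 16.8% of gained peaks (15.5 to 18.2). In endoderm the shares were 30.6% (29.1 to 32.2), 23.0% (21.6 to 24.5) and 16.3% (14.995 to 17.8). Lost peaks with H3K27me3 in both tissues numbered 814, against 295 in ectoderm only and 209 in endoderm only. Considering regions of both histone marks in ectoderm, 47.9% of lost peaks overlapped neither, 21.6% H3K27me3 alone, 18.8% H3K27ac alone and 11.6% both. Gained peaks overlapped neither in 27.7% of cases, H3K27me3 alone in 6.13%, H3K27ac alone in 55.5% and both in 10.7%. The largest single group of lost sites thus overlapped neither mark in ectoderm. The ectoderm H3K27ac and H3K27me3 regions are stitched and covered 169.9 and 171.2 Mb. Overlap with one does not place the mark on the Foxi2 peak itself.

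**Figure D3:**
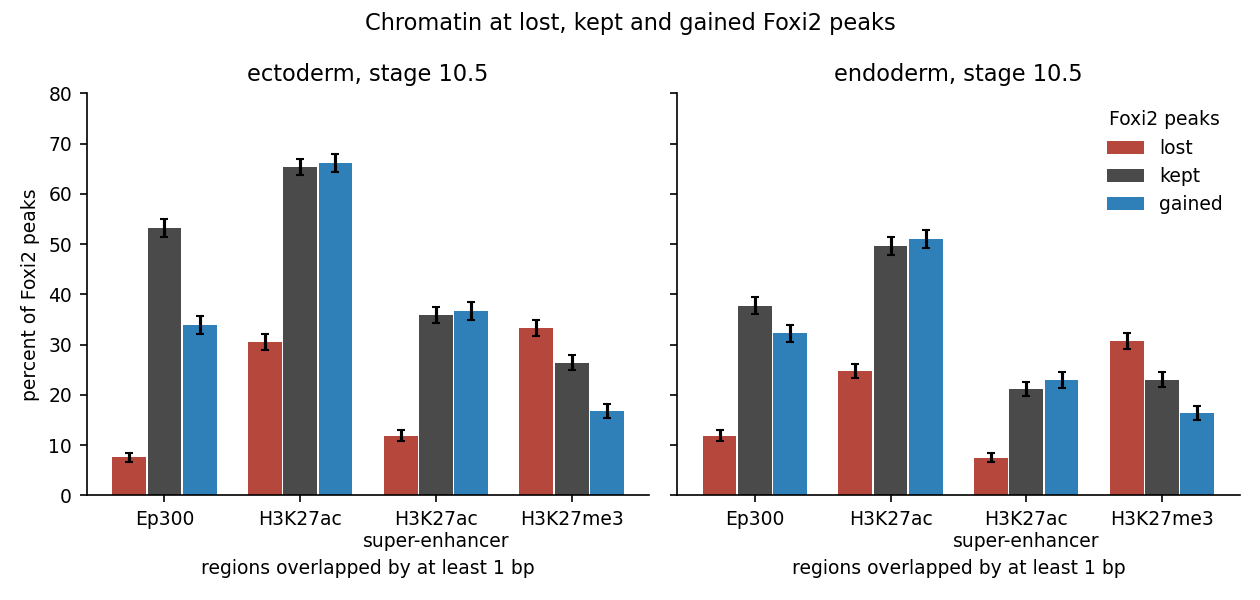
Percent of lost, kept and gained Foxi2 peaks that overlap an Ep300 peak of the initial experiment, an H3K27ac region, an H3K27ac super-enhancer or an H3K27me3 region in ectoderm (left) and endoderm (right) of stage 10.5, with Wilson 95% intervals as error bars. Lost peaks are lowest for Ep300 and H3K27ac and highest for H3K27me3 in both tissues.

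Since lost and gained peaks were weaker than kept ones, the marks were also compared within the quintiles of strength. Ep300 and both histone marks were measured at stage 10.5 only, so their state at these sites at stage 9 is not known. In the stage 9 list, ectoderm Ep300 of stage 10.5 overlapped 6.41%, 6.17%, 9.38%, 8.29% and 9.32% of lost peaks from the weakest to the strongest quintile. The shares of kept peaks were 39.9%, 45.5%, 51.1%, 52.6% and 63.6%. Ep300 and H3K27ac of both tissues were less frequent, and H3K27me3 more frequent, at lost than at kept peaks in all 5 quintiles. At stage 10.5 the ectoderm Ep300 share of gained peaks was below that of kept peaks in the strongest quintile alone. Gained peaks had ectoderm Ep300 in 19.7%, 34.7%, 42.0%, 54.2% and 68.8% of peaks from the weakest to the strongest quintile, and kept peaks in 13.3%, 27.9%, 38.1%, 53.4% and 78.1%. The gained share was the higher one in 4 of 5 quintiles for ectoderm Ep300 and in 5 of 5 for endoderm Ep300. For ectoderm Ep300 the Wilson intervals of gained and kept peaks overlapped in all 5 quintiles. For endoderm Ep300 they were apart in quintiles 1 and 2, the weakest, and overlapped in the others. Ectoderm H3K27ac overlapped 62.7% of gained peaks in the weakest quintile (59.7 to 65.7) against 35.4% of kept peaks (29.5 to 41.8). H3K27me3 was less frequent at gained than at kept peaks in all 5 quintiles in both tissues.

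Most lost sites were old Foxi2 sites, though a smaller share than of kept sites, and most gained sites were new. No stage 8 partner was found for 17.04% of the whole stage 9 list and 21.8% of lost peaks. A stage 8 Foxi2 peak overlapped 78.2% of lost peaks (76.7 to 79.5), 88.2% of kept peaks (87.1 to 89.3) and 19.3% of gained peaks (17.9 to 20.8). The gained set therefore held 532 sites that were listed at stage 8, absent from the stage 9 list and listed again at stage 10.5. These returning sites had a median fold enrichment of 12.5 at stage 8 and 20.5 at stage 10.5. The stage 8 median was 14.6 over the whole stage 8 list, 19.0 at lost and 21.1 at kept peaks with a stage 8 peak. The returning sites were thus weak at stage 8, and whether they only fell below the stage 9 cutoff was not tested. Ectoderm Ep300 overlapped 26.7% of the returning sites, against 35.7% of the 2224 gained sites without stage 8 binding. Among the 729 lost peaks without a stage 8 peak, which were listed at stage 9 alone, 44.7% lay in ectoderm H3K27me3, against 30.0% of the 2609 lost peaks that were bound from stage 8 on.

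Sox3 accompanied kept and gained sites but not most lost ones. A Sox3 peak of stage 10.5 overlapped 24.3% of lost peaks (22.8 to 25.7), 84.0% of kept peaks (82.7 to 85.2) and 74.0% of gained peaks (72.4 to 75.6). At stage 9 the Sox3 shares were 19.4%, 60.0% and 18.4%. Neither stage had Sox3 at 2362 lost peaks, 491 kept peaks and 712 gained peaks. At 1936 kept peaks Sox3 was present at both stages, and at 1538 gained peaks it was present at stage 10.5 only. These 1538 were 55.8% of gained peaks, and 2040 gained peaks had Sox3 at stage 10.5. Over the whole stage 10.5 Sox3 list 72.0% of peaks had no stage 9 partner. Most Sox3 peaks of that stage were thus of this kind, at gained Foxi2 sites and elsewhere. Among the 1538, 1310 (47.5% of gained peaks, 45.7 to 49.4) had a stage 8 peak of neither factor. Of the 648 lost peaks with Sox3 at stage 9, 166 had none at stage 10.5 (25.6%, 22.4 to 29.1), against 38 of 1991 kept peaks of stage 9 (1.91%, 1.39 to 2.61).

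The Ep300 share differed by Sox3 state within each set. At sites with no Sox3 at either stage, ectoderm Ep300 overlapped 0.847% of lost, 8.35% of kept and 6.32% of gained peaks. With Sox3 at stage 10.5 only, the shares were 18.0%, 38.4% and 36.3%. With Sox3 at both stages they were 35.9% (31.7 to 40.3), 71.8% (69.8 to 73.8) and 65.9% (61.7 to 70.0). In each of these Sox3 states lost sites had the lowest share, and the Wilson intervals of kept and gained sites overlapped. The 482 lost sites that held Sox3 at both stages lay in the repressive mark more often than the kept ones. Ectoderm H3K27me3 overlapped 62.4% of them and endoderm H3K27me3 56.6% (52.2 to 61.0), against 29.3% and 25.6% of kept sites with Sox3 at both stages. H3K27ac overlapped 52.3% of the same 482 sites in ectoderm and 43.4% in endoderm. This was above the 30.4% and 24.7% of all lost peaks and below the 72.2% and 56.7% of those kept sites. Many of the 482 sites therefore lay in regions of either mark.

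**Figure D4:**
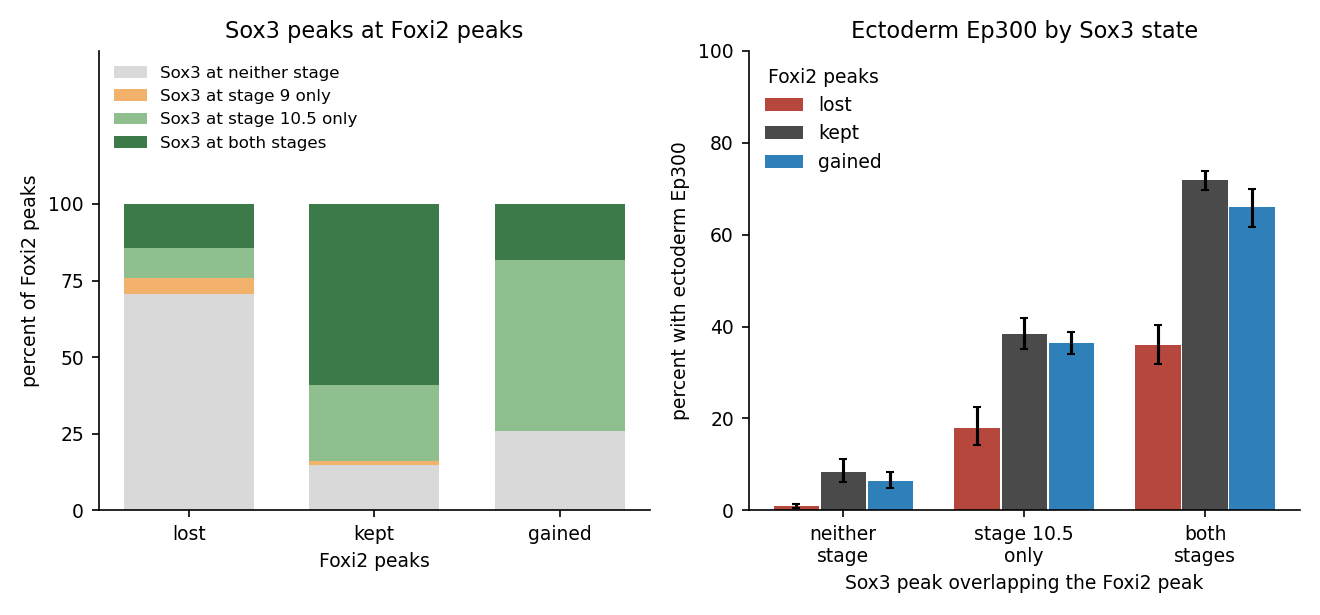
Left, the percent of lost, kept and gained Foxi2 peaks that overlap a Sox3 peak at neither stage, at stage 9 only, at stage 10.5 only or at both. Right, the percent of each set with an ectoderm Ep300 peak by Sox3 state, with Wilson 95% intervals as error bars. No Sox3 peak of either stage overlaps 70.8% of lost peaks, and the Ep300 share is highest where Sox3 is at both stages.

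The strength of kept sites also varied with Sox3 and with earlier binding. The median ratio of stage 10.5 to stage 9 fold enrichment was 1.34 (95% interval of the median 1.30 to 1.37) in the 807 pairs where Sox3 was present at stage 10.5 only. It was 1.07 (1.05 to 1.09) in the 1883 pairs with Sox3 at both stages, 1.01 (0.958 to 1.06) in the 486 without Sox3 and 0.651 (0.567 to 0.809) in the 34 where Sox3 was present at stage 9 only. The first of these sets was also the weakest at stage 9, with a median fold enrichment of 18.7 against 27.05 for sites with Sox3 at both stages. Within quintiles of stage 9 strength, pairs with Sox3 at stage 10.5 only and pairs with Sox3 at both stages had ratios of 1.70 and 1.72 in the weakest quintile and 0.851 and 0.748 in the strongest. Pairs without Sox3 had lower ratios in every quintile, from 1.31 to 0.706. Pairs with no stage 8 peak had a median ratio of 1.51 (1.40 to 1.61, n = 380 pairs) and those with one had 1.07 (1.05 to 1.09, n = 2830 pairs). The pairs with no stage 8 peak were also weaker at stage 9, with a median fold enrichment of 15.4 against 25.3. The stage 8 comparison was not made within quintiles.

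The later Ep300 experiment allowed the sets to be followed into FS morphants. Among wild-type ectoderm Ep300 peaks, 42.9% of the 1950 at kept Foxi2 sites also overlapped a peak of FS morphant ectoderm (40.7 to 45.1). The share was 34.8% of the 1086 at gained sites (32.0 to 37.7), 57.0% of the 270 at lost sites (51.1 to 62.8) and 48.2% of the 2246 with no Foxi2 of either stage (46.2 to 50.3). Ep300 at sites bound at stage 10.5 was thus shared less often with morphants than Ep300 elsewhere. The strength of the Ep300 peak moved with this share. In quintile 4 of wild-type Ep300 strength, counted from the weakest, 38.1% of Ep300 peaks at kept sites and 42.9% at gained sites were shared, against 68.4% at lost sites and 74.5% where there was no Foxi2. The difference between kept sites and sites without Foxi2 was widest in quintile 4. In the weakest quintile the shares were 14.4%, 14.5%, 39.7% and 30.3%, and in the strongest 66.8%, 69.1%, 84.8% and 84.2%. The Wilson intervals of kept and gained sites overlapped in all 5 quintiles, as did those of lost sites and sites without Foxi2. In endoderm the shares over all strengths were 85.4%, 85.1%, 88.8% and 82.6% for the kept, gained, lost and remaining sites. In the weakest quintile of endoderm Ep300 strength they were 28.99%, 33.6%, 47.3% and 49.85% in the same order. In quintile 2 they were 61.8%, 64.4%, 79.3% and 79.4%, and in quintile 3 85.4%, 83.98%, 96.1% and 95.8%. Kept and gained sites thus had lower shares than sites without Foxi2 in these quintiles too. In quintiles 4 and 5 all shares were at least 97.5%. The FS morphant ectoderm list was shorter than the wild-type list, with 3593 peaks against 5552, and all ectoderm shares were lower than those of endoderm. Counted over Foxi2 peaks, wild-type ectoderm Ep300 overlapped 58.4% of kept, 39.8% of gained and 8.24% of lost peaks. Ep300 of FS morphant ectoderm overlapped 27.5%, 15.8% and 9.59% of the same sets.

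Single sites were named by their fold enrichment, and Ep300 at single sites and genes is that of the initial experiment unless stated. Coordinates are those of the genome build version 10.0 counted from 1, and gene bodies are those of RefSeq, with exons and strand not resolved here. The strongest lost peak lay in the body of *cuedc1* on chromosome 2 (76242904 to 76243939), with a fold enrichment of 69.9 at stage 9, the highest of that list. It had no Foxi2 peak at stage 8, Sox3 at both stages, Ep300 in both tissues, H3K27me3 in both and H3K27ac in ectoderm. A kept peak in the same gene body (76241775 to 76242133) had the second lowest ratio of all pairs, with 54.6 at stage 9 and 15.7 at stage 10.5. A neighbouring pair of sites in *cuedc1* was therefore strong at stage 9 and weak or unlisted at stage 10.5. Of the other lost peaks among the 5 strongest, those in *LOC100492479* (fold enrichment 58.1) and *tmc8* (58.0), a transmembrane channel-like gene, also had H3K27me3 and Ep300 in both tissues, Sox3 at both stages and no stage 8 Foxi2. The *LOC100492479* peak overlapped H3K27ac in both tissues and the *tmc8* peak in endoderm only. The lost peaks in *sfmbt2* (59.2), which encodes a Polycomb-associated protein, and *agbl4* (53.9) were listed at stage 8 and had none of Sox3, Ep300, H3K27ac and H3K27me3. The 5 strongest lost peaks were thus of 2 kinds, as far as these lists show. Among the 311 lost peaks of the strongest stage 9 quintile, 92.6% had a stage 8 Foxi2 peak and 9.32% had ectoderm Ep300. The kind without stage 8 Foxi2 was therefore uncommon among strong lost peaks.

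The 5 strongest kept peaks had fold enrichments of 49.8 to 50.6 at stage 10.5 and 29.7 to 56.8 at stage 9, with summits 7 to 34 bp apart. All 5 had a stage 8 Foxi2 peak, stage 10.5 Sox3 and ectoderm Ep300. Among kept peaks in the strongest quintile of stage 10.5, by −log10 p, these shares were 94.5%, 96.9% and 78.1%. None of the 5 overlapped an Ep300 peak of FS morphant ectoderm, which only 27.5% of all kept peaks did. The nearest genes were *tmprss15*, *LOC101735025*, *unc5a*, *pkdcc.2* and *cbfb*, and only the peak of *unc5a*, a netrin receptor, lay in a gene body. The 5 strongest gained peaks had fold enrichments of 40.5 to 43.4. All had Sox3 at stage 10.5, as did 95.3% of gained peaks in the strongest quintile of that stage. *agrn*, *otx2*, *baiap2l1* and *gramd2b* were among the nearest genes. The peak nearest *agrn* (96352 bp) had Ep300 in endoderm but not in ectoderm. The peak 58544 bp from *otx2*, a homeobox gene of the anterior neural plate, lay in an ectoderm super-enhancer and had been listed at stage 8.

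The largest ratio of a kept pair was 3.51, in the body of *trim71* on chromosome 6 (50322166 to 50323368), where fold enrichment was 12.02 at stage 9 and 42.1 at stage 10.5. *trim71* encodes an RNA-binding protein of early embryos. The next ratios, 3.39 near *ralyl* (9136 bp) and 3.31 near *esr-5* (1795 bp), a Notch-responsive gene, also belonged to sites with Sox3 at both stages, ectoderm Ep300 and H3K27ac in both tissues. The lowest ratio was 0.258 at a site 243143 bp from *tenm3*, with 64.9 at stage 9 and 16.7 at stage 10.5. The third lowest, 0.302, lay in *trio*, where Sox3 was listed at stage 9 and not at stage 10.5. All 3 sites with the lowest ratios overlapped ectoderm H3K27me3 and none of the 3 with the highest did, but over all pairs the shares were 31.3% in the lowest quintile of the ratio (27.8 to 35.0) and 24.6% in the highest (21.4 to 28.1).

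Peaks were then assigned to genes when they lay within 20 kb of the gene body. Over the 21749 protein-coding genes, 13.4% had at least 1 kept peak, 11.3% at least 1 gained peak and 13.8% at least 1 lost peak. The gene lists hold developmental regulators chosen with results of these data known, and 83 of their 86 genes were found by symbol. Their bodies were shorter than those of all genes, with a median of 6465 bp against 15506 bp. Counts for them are descriptions, and neighbouring genes share peaks.

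Among the 17 genes of surface ectoderm and epidermis, 13 had a kept peak, 13 a gained peak and 7 a lost peak, against the 13.4%, 11.3% and 13.8% of all genes. They held 29 distinct kept, 26 gained and 7 lost peaks. Ectoderm Ep300 overlapped 21 of the 29 kept peaks, 18 of the 26 gained peaks and 0 of the 7 lost peaks. Over all kept, gained and lost peaks the shares were 53.2%, 34.0% and 7.58%. Ectoderm H3K27me3 overlapped 11 of the kept, 6 of the gained and 5 of the lost peaks, against 26.3%, 16.8% and 33.2% over all peaks. *tp63*, the regulator of epidermal progenitors, had 2 kept peaks in its body, with fold enrichments of 42.5 and 41.9 at stage 9 and 38.4 and 26.6 at stage 10.5. It had 4 gained peaks of 17.5, 20.4, 23.8 and 28.5, all within an ectoderm super-enhancer, and 3 of these had ectoderm Ep300 and stage 10.5 Sox3. None of the 4 had been listed at stage 8. At *klf5*, a Krüppel-like factor of epithelia, a kept site went from 11.998 at stage 9 to 39.4 at stage 10.5, and 4 peaks of 13.8 to 31.1 were gained. *krt70*, a keratin of the larval epidermis, had 1 kept peak (18.3 and 32.8) and 3 gained peaks of 14.3, 17.7 and 28.6, and all 4 had ectoderm Ep300 without endoderm Ep300.

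The other genes of this list showed both patterns. *foxi1*, a forkhead gene of the epidermis, had 3 kept peaks and no other, with 30.0, 17.8 and 54.2 at stage 9 and 31.1, 25.8 and 33.3 at stage 10.5. All 3 had ectoderm Ep300, although no ectoderm H3K27ac region covered the gene body. *grhl3*, a grainyhead-like gene of the epidermal barrier, had 4 kept peaks of 20.1 to 41.7 at stage 10.5 and 1 lost peak of 18.7. *dlx3*, a homeobox gene of non-neural ectoderm, had gained peaks of 23.0 and 21.7 only. *dlx5* and *dlx6* shared 5 kept peaks and 1 gained peak. *tfap2a*, a regulator of epidermis and neural crest, had kept peaks of 31.9 and 34.6 at stage 10.5, a gained peak of 16.9 and a lost peak of 17.8 that lay in H3K27me3 of both tissues. *gata2*, a GATA factor of ventral ectoderm, had 4 kept and 3 gained peaks and 1 lost peak of 14.8, whereas *gata3* had a lost peak of 18.8 and a gained peak of 17.7.

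All 7 matched genes of the placode and neural border list had a gained peak, 4 had a kept peak and 1 a lost peak. Over all genes these shares were 11.3%, 13.4% and 13.8%. Of the list's 10 gained peaks, 2 had ectoderm Ep300 and 5 had endoderm Ep300, against 34.0% and 32.2% of all gained peaks. *eya1*, a transcriptional coactivator of placodes, had 3 kept peaks of 23.5, 30.7 and 42.0 at stage 10.5 and gained peaks of 21.2, 22.3 and 28.9. In the initial experiment each of the gained peaks had Ep300 in endoderm only, whereas in the later one 2 of the 3 overlapped ectoderm Ep300. *sox9*, a neural crest regulator, had a single gained peak of 21.6. *pax3*, a neural border gene, had 4 kept peaks, 1 gained peak of 21.95 and 1 lost peak of 18.0. One of the kept *pax3* pairs had summits 1690 bp apart, the largest distance of all one-to-one pairs.

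Of the 15 neural ectoderm genes, 14 had a kept peak, 11 a gained peak and 6 a lost peak, against 13.4%, 11.3% and 13.8% of all genes. Ectoderm Ep300 overlapped 24 of the list's 30 kept peaks, 8 of its 16 gained peaks and 1 of its 11 lost peaks. Over all kept, gained and lost peaks the shares were 53.2%, 34.0% and 7.58%. *prdm14*, a PR-domain gene, had a kept peak that went from 15.4 to 31.9 and 4 gained peaks of 14.96 to 22.4, all with ectoderm Ep300. *lhx5*, a LIM homeobox gene of the forebrain, had 4 kept peaks and no other, with 20.3 to 36.2 at stage 10.5. *sox3* itself had 1 kept peak (20.8 and 25.6) and 3 lost peaks of 21.0, 11.1 and 10.2, all in an ectoderm super-enhancer. *otx2* had a kept peak (24.3 and 34.9) and lost peaks of 24.4 and 14.3 in H3K27me3 of both tissues. *foxb1*, a forkhead gene of the neural plate, had a strong lost peak of 37.7, also in H3K27me3 of both tissues. The study counts *otx2* among endodermal genes of the early gastrula. An endoderm but no ectoderm H3K27ac region overlapped the bodies of *otx2*, *foxb1*, *neurog3* and *foxd4l1.1*, so this list is not purely of ectoderm-marked genes.

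The order of the counts was different among the 19 genes of endoderm and organizer. Of these, 14 had a lost peak, 13 a kept peak and 8 a gained peak, against 13.8%, 13.4% and 11.3% of all genes. The 19 genes held 18 distinct lost, 26 kept and 7 gained peaks. Of these genes, 10 had a lost peak without a gained one and 4 a gained peak without a lost one, against 11.4% and 8.95% of all genes. In the surface ectoderm list the same counts were 2 and 8 of 17. Endoderm Ep300 overlapped 8 of the 18 lost peaks, 14 of the 26 kept peaks and 4 of the 7 gained peaks, and ectoderm Ep300 overlapped 1, 7 and 0. Over all lost, kept and gained peaks the endoderm shares were 11.8%, 37.8% and 32.2% and the ectoderm shares 7.58%, 53.2% and 34.0%. H3K27me3 of ectoderm covered 9 of the 18 lost peaks, 21 of the 26 kept peaks and 3 of the 7 gained peaks. Over all peaks its shares were 33.2%, 26.3% and 16.8%. The kept peaks of this list thus had the largest share, whereas over all peaks the lost ones had it. *sox17a* and *sox17b.1*, the endoderm-determining HMG factors, shared 1 lost peak of 11.2 and had no other. *gata6*, an endodermal GATA factor, had lost peaks of 18.1 and 19.4 and a gained peak of 14.1. *hhex*, a homeobox gene of anterior endoderm, had lost peaks of 14.4 and 26.03 and a kept peak (27.9 and 31.5). *cer1*, a secreted antagonist of Nodal, BMP and Wnt signals, had a lost peak of 30.9 and a kept peak that went from 34.1 to 24.1. *vegt*, the maternal T-box factor of endoderm, had 2 lost peaks of 16.1 and 14.0 and 2 kept peaks. *gsc*, a homeobox gene of the organizer, had 4 kept peaks and 1 lost peak of 20.6, all in H3K27me3 of both tissues. *foxa1* had no Foxi2 peak of either stage within 20 kb.

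**Figure D5:**
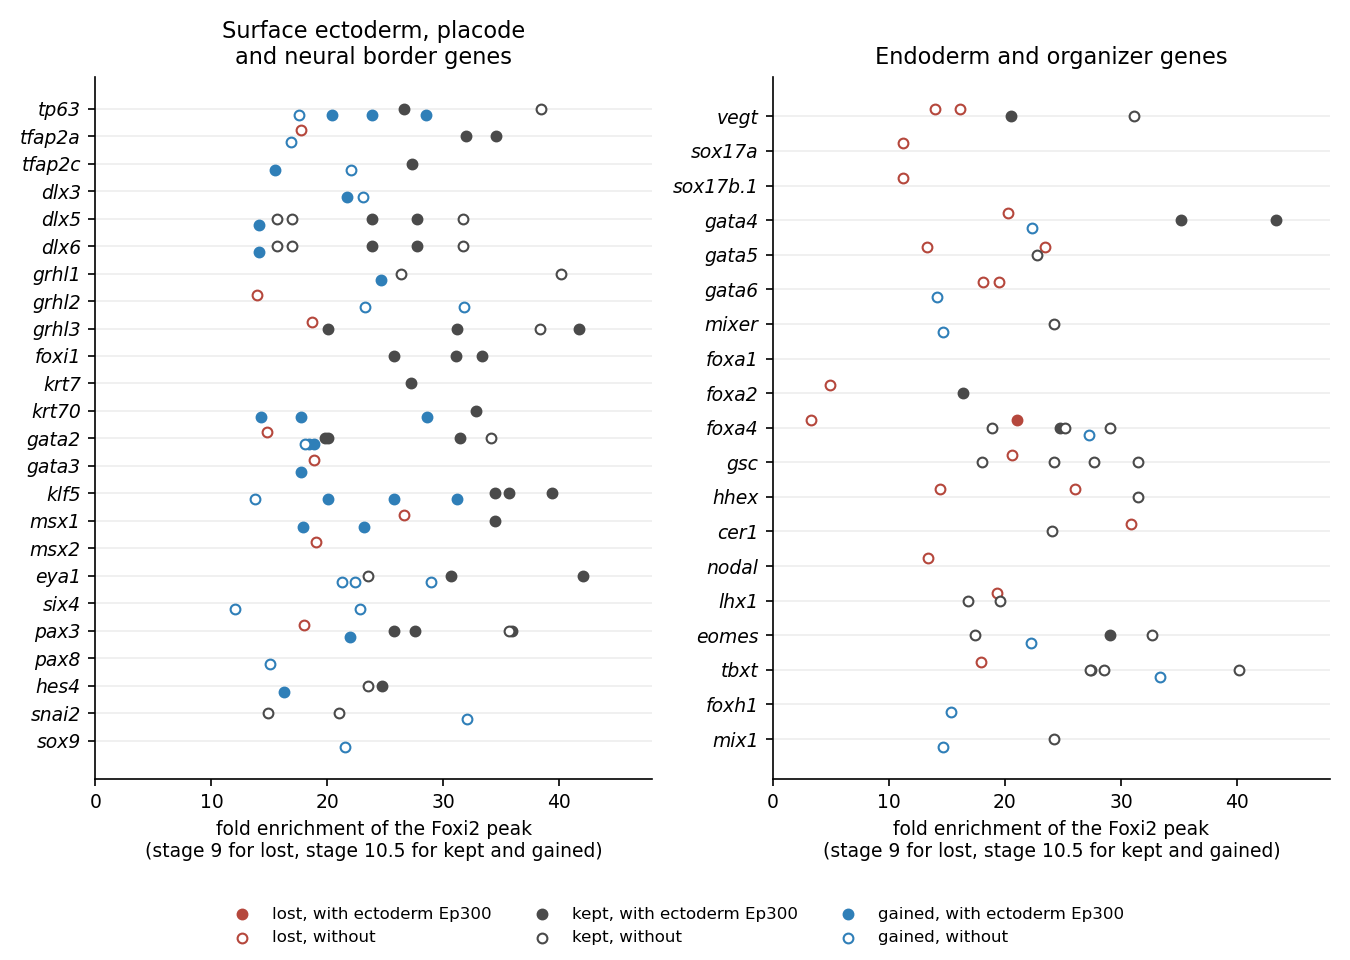
Fold enrichment of each Foxi2 peak within 20 kb of the body of genes of surface ectoderm, placode and neural border (left) and of endoderm and organizer (right), at stage 9 for lost peaks and stage 10.5 for kept and gained peaks. Filled points overlap an ectoderm Ep300 peak. None of the lost peaks on the left is filled and 1 on the right is, and over all lost peaks 7.58% overlap ectoderm Ep300. Overlapping neighbours such as *dlx5* and *dlx6* repeat the same peaks.

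Kept peaks were found at most pluripotency genes. Of 10 genes, 9 had a kept peak, 8 a gained peak and 3 a lost peak, against 13.4%, 11.3% and 13.8% of all genes. The 3 genes with a lost peak were all *ventx* genes of chromosome 7, with 2 distinct lost peaks among them. Both kinds of Ep300 were frequent at the 29 kept peaks of the list (25 with ectoderm and 23 with endoderm Ep300). Over all kept peaks the shares were 53.2% and 37.8%. *ventx1.1*, a homeobox gene downstream of BMP, lay in a cluster on chromosome 7 and had 12 kept peaks, all with Ep300 in both tissues, besides 1 gained peak of 21.4 and 1 lost peak of 27.5. Fold enrichment at these 12 sites ran from 15.2 to 57.5 at stage 9 and from 21.8 to 36.3 at stage 10.5. The *pou5f3* genes, relatives of mammalian *Oct4*, shared kept peaks that went from 58.3 to 29.0 and from 13.3 to 25.5. *klf17* had 6 kept peaks. Reads from near-identical copies in such clusters may be placed on any copy, so values of single sites there are uncertain.

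The list of BMP, Nodal, Wnt and FGF signals also held *hgf* and *dlc*, which belong to none of these pathways. Among its 15 matched genes, 11 had a kept peak, 11 a gained peak and 5 a lost peak, against 13.4%, 11.3% and 13.8% of all genes. Of the 15, 9 had a gained peak without a lost one and 3 a lost peak without a gained one. Over all genes these shares were 8.95% and 11.4%. The 9 included *bambi*, *id3* and *smad7*, known as targets of BMP signalling, but also *wnt8a* and *dlc*. *bambi*, a BMP pseudoreceptor, had 1 kept peak (47.97 and 32.8) and gained peaks of 15.02, 15.9, 26.8 and 18.2, all with ectoderm Ep300. *id3*, an inhibitor of helix-loop-helix factors, had 2 kept and 4 gained peaks, of which the weakest reached a fold enrichment of 3.98 only. *smad7*, an inhibitory Smad, had 1 kept peak (16.5 and 21.6) and gained peaks of 26.7, 34.5 and 14.4. Lost peaks were found at *lefty*, a Nodal antagonist, with 3 lost peaks of 12.3, 25.3 and 24.3 beside 3 kept ones, and at *hgf*, hepatocyte growth factor, with lost peaks of 29.9, 21.6 and 31.3 beside 1 kept peak (34.7 and 26.8). *bmp4*, the ligand itself, had 3 kept peaks, of which 2 went from 12.4 to 29.3 and from 13.5 to 26.1. It also had 1 gained peak and 1 lost peak of 26.3.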

How the data were processed

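Per the study's methods, Bowtie 2 (Bowtie2 2.2.7 in the submitters' processing notes) placed reads on version 10.0 of the *X. tropicalis* genome. Duplicate reads were discarded before MACS2 peak calling with input as control, and the irreproducible discovery rate joined the replicates. The deposited lists give, per peak, a fold enrichment (ratio of ChIP to input), the −log10 of the p-value and of the q-value (the latter not used), a reproducibility score of at least 540 in both Foxi2 lists and a summit. The authors stitched H3K27ac and H3K27me3 regions with ROSE, whose deposited H3K27ac signal was used only through the authors' super-enhancer calls. Depth per sample is unknown from the lists.

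Overlaps of at least 1 bp were counted in Python 3.11.15 (pandas 2.3.3, numpy 2.4.6, scipy 1.17.1), after a check on simulated intervals against bedtools 2.31.1. Kept peaks were measured at their stage 10.5 position. Intervals of medians are exact binomial ones. Gene positions came from RefSeq for UCB_Xtro_10.0. Named were the 5 peaks of highest fold enrichment in each set, the 3 highest and 3 lowest ratios of kept pairs, and peaks within 20 kb of listed genes. Members and lists were chosen with earlier results of these data known. Alternatives were a 50% overlap, equal list lengths, the stronger 50% of each list, the later Ep300 experiment and overlap at the summit. A few sites and genes that these rules name are not reported here.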

Additional observations from a re-analysis of the deposited data

How the results depend on the processing

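No paired analysis was possible because each group has 1 list in which the replicates were already combined, and for the same reason no replicate could be left out. Of 96 recomputed values, 52 stayed within the 95% interval of the reported value and 44 did not. Under every setting run, lost peaks had the lowest Ep300 and H3K27ac shares in both tissues, and H3K27me3 was most frequent at lost and least frequent at gained peaks. When a pair had to cover 50% of both its peaks, 55.4% of stage 9 peaks were lost and 50.8% of stage 10.5 peaks gained. Ectoderm Ep300 was then found at 13.2% of lost, 51.4% of kept and 37.7% of gained peaks, endoderm Ep300 at 15.4% of lost and 34.1% of gained peaks, and H3K27ac at 35.4% of lost peaks in ectoderm and 28.4% in endoderm. With lists of equal length the shares lost and gained were 47.7% and 48.2% and the median ratio of kept pairs 1.09.

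The stronger 50% of each list, set against the whole other list, was the setting with the widest shifts in the shares lost and gained. The shares lost and gained were 37.6% and 21.3%, the median ratio 1.005 and the median summit distance 14 bp. Ectoderm Ep300 overlapped 8.53% of lost, 63.5% of kept and 52.2% of gained peaks, and endoderm Ep300 13.7%, 44.3% and 45.2%, so that the endoderm share was slightly higher at gained than at kept peaks. H3K27ac overlapped 70.4% of kept and 69.6% of gained peaks in ectoderm, and 26.6%, 53.7% and 57.6% of lost, kept and gained peaks in endoderm. H3K27me3 overlapped 15.2% of gained peaks in ectoderm and 33.3% of lost peaks in endoderm. With the later Ep300 experiment, ectoderm Ep300 overlapped 58.4% of kept and 39.8% of gained peaks, and endoderm Ep300 15.5%, 47.1% and 40.2% of lost, kept and gained peaks. When the Foxi2 summit had to lie in the marked region, H3K27ac shares were 28.55%, 63.1% and 64.0% in ectoderm and 23.0%, 47.4% and 49.0% in endoderm for lost, kept and gained peaks, ectoderm H3K27me3 was at 23.9% of kept and 15.1% of gained peaks, and endoderm H3K27me3 at 29.0% of lost and 20.6% of kept peaks. Measuring kept peaks at their stage 9 position, an alternative chosen after seeing the data, kept all 6 values within their intervals. The cause of these shifts was not tested. A site below the cutoff of one list counts as unbound, and with 1 list per stage the spread between embryos is not known.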

Other observations

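Lost and gained peaks gathered at some genes outside the gene lists. These genes were chosen after their counts were seen and are given as values. *wdfy3* had 7 lost peaks within 20 kb of its body and neither kept nor gained peaks, and *col4a2*, a basement membrane collagen, and *arfgef3* had 6 each and likewise no other. On chromosome 6, *znf33b* had 7 lost peaks and its zinc-finger neighbours *znf470* and *znf665* had 6 each, partly the same peaks, with no kept or gained peak. Such gene copies can share reads, so these counts are uncertain. *arid3a*, an ARID-domain gene, had 5 gained peaks and no other, and *fgfr2*, a receptor of FGFs, had 7 gained, 1 kept and 1 lost peak. *znf608* had both, with 8 kept and 9 gained peaks. Gene length varied among them, from 2336 bp for *znf33b* to 629444 bp for *arfgef3*.

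Chromosome 10 had the highest share of gained peaks, 131 of 234 or 56.0% (49.6 to 62.2), and the lowest share of lost peaks, 45.3%. On the other chromosomes 42.2% to 49.4% of stage 10.5 peaks were gained and 47.6% to 52.3% of stage 9 peaks were lost. Position relative to genes differed little between the sets. The summit lay in a protein-coding gene body at 51.4% of lost (49.7 to 53.1), 49.0% of kept (47.3 to 50.7) and 51.1% of gained peaks (49.2 to 52.9), and within 1 kb of a gene end at 8.03%, 7.80% and 7.37%.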
